A study of Homo sapiens with 18 samples.

Results

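Binding of DNA topoisomerase II beta (TOP2B) was mapped by ChIP-seq in KG-1 cells, an established human myeloid leukaemia line, after exposure to etoposide or to its vehicle. The members were every MACS peak and every SISSRs site called in the 4 TOP2B libraries of the etoposide experiment, chosen by antibody and treatment label: 587597 of the 1413022 MACS peaks of the series. Etoposide libraries (n = 2) came from cells given 100 µM etoposide for 1 h. Vehicle libraries (n = 2) came from cells given the methanol vehicle for 1 h. All cells were KG-1, and all 4 libraries used 4 µg of the TOP2B antibody 3535 per precipitation, with several precipitations pooled into each library before 50 bp paired-end sequencing. The same experiment held 2 TOP2A libraries per treatment, which serve here only to show where TOP2B differed. The labels do not state whether replicates were grown as separate cultures, so p-values measure only the spread between these libraries, which may be technical.

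TOP2B cuts both strands of a DNA duplex, passes another duplex through the break and reseals it, which relieves the twist and tangling left by transcription and looping. It is present in dividing and resting cells, unlike TOP2A, which rises in proliferating cells. Etoposide is an anticancer drug that holds either enzyme on the cut DNA as a cleavage complex and so slows resealing. The question set by the design is where TOP2B lies with and without such trapping.

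The etoposide lists held 70459 and 103633 MACS peaks (replicates 1 and 2), and the vehicle lists 116111 and 297394. SISSRs sites numbered 114738 and 106101 with etoposide, against 119985 and 293514 with vehicle. No source used here gives the reads per library. Tags in SISSRs sites summed to 6313134 and 4677005 with etoposide and to 11505215 and 15954757 with vehicle, sums that move with how many sites were called and are not the depth. The lists therefore give called places and shares within a list, while the amount of TOP2B on the DNA cannot be read from them.

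Etoposide replicate 1 stood apart from the other TOP2B libraries in its MACS scores, which are the authors' own values. It held 1189 distinct scores, against 15546 in etoposide replicate 2 and 21040 and 31304 in the vehicle libraries. Its 3 most common scores covered 64.7% of the list, against 5.93% in etoposide replicate 2 and 14.1% and 5.94% with vehicle. Of its peaks, 43.5% reached a score of 100, while the other lists had 97.3% (etoposide replicate 2), 98.2% and 97.2% (vehicle replicates 1 and 2).

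The tag counts of the SISSRs sites under smallest-width peaks showed the same contrast. In etoposide replicate 1, peaks at the score 60.83 had a median of 38 tags (quartiles 34 and 42), those at 84.51 had 52 and those at 109.17 had 67, so a single score covered a range of tag counts. In etoposide replicate 2 the score 697.38 went with 36 tags at both quartiles. In the vehicle libraries the score 1391.04 went with 78 tags in replicate 1 and the score 469.6 with 36 tags in replicate 2, again at both quartiles. Peaks at the tag count most common for their score made up 11.8% and 80.6% of such peaks with etoposide, and 61.9% and 84.3% with vehicle. Stepped scores also occurred in TOP2A etoposide replicate 1, where the score 61.34 had a median of 19 tags and quartiles of 17 and 22. In vehicle replicate 1, 12.1% of the list sat at the score 3100.

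**Figure D1:**
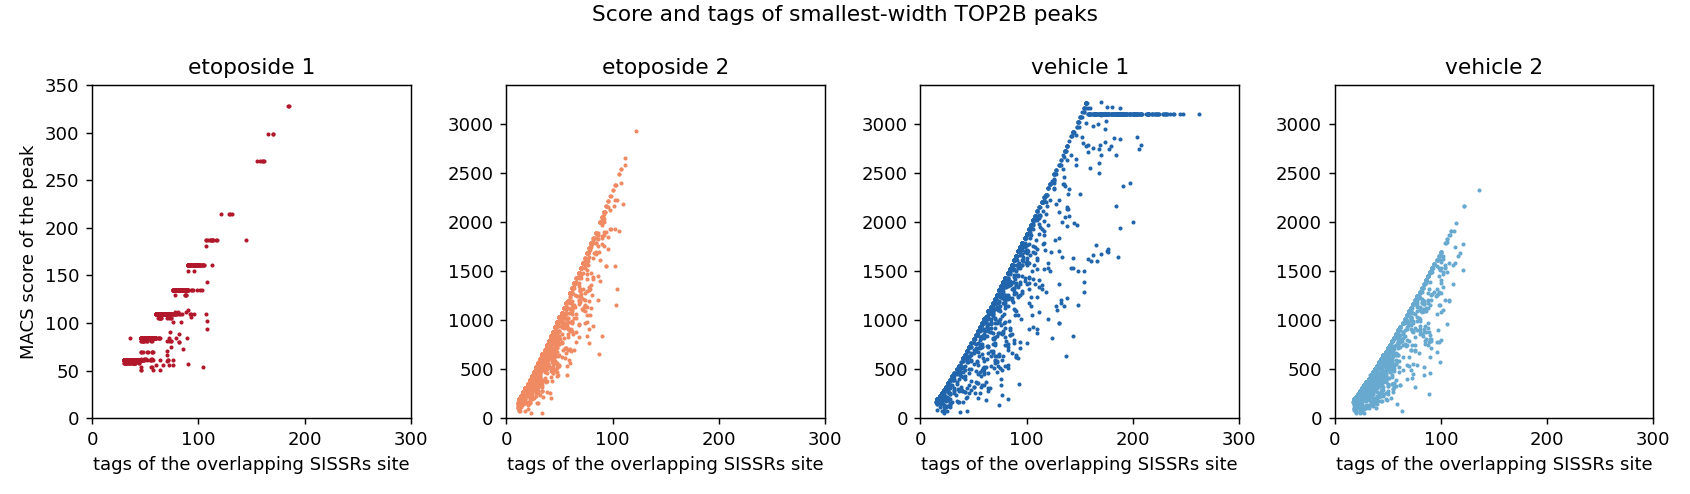
MACS score against the tag count of the overlapping SISSRs site, for smallest-width peaks of each TOP2B library, 1 point per sampled peak. The score axis of etoposide replicate 1 ends lower than the others. Scores of etoposide replicate 1 form flat steps such as 60.83 and 84.51, and vehicle replicate 1 has a flat line at 3100.

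The callers overlapped least in the same library. A MACS peak covered 61.2% of SISSRs sites in etoposide replicate 1 and 92.8% in etoposide replicate 2, against 94.2% and 97.7% in the vehicle libraries. Sites outside a peak had fewer tags in every library, with medians of 22 and 15 outside against 63 and 39 inside with etoposide, and 24 and 26 outside against 85 and 46 inside with vehicle. The part of its score steps in those results was not tested.

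Mean peak width was smaller in both etoposide libraries than in both vehicle libraries. Mean width was 120 and 109 bp with etoposide and 130 and 141 bp with vehicle. The difference was -21.1 bp (means of 114 ± 8.13 bp with etoposide and 135 ± 7.66 bp with vehicle, SD, n = 2 each). It was -9.90 bp within replicate number 1 and -32.2 bp within number 2, and -26.8 bp without etoposide replicate 1. The two-sided exact permutation p was 0.333, which is the lowest value this test can reach with 2 libraries a group, so no such comparison could pass 0.05. In TOP2A the mean width difference was -5.91 bp in number 1 and -8.14 bp in number 2, so the direction was not particular to TOP2B.

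More peaks than not sat at the minimum width of the list, which was 102 and 100 bp with etoposide and 116 and 124 bp with vehicle. Beyond its list's smallest width, a peak averaged 18.1 and 8.57 bp with etoposide and 14.0 and 16.8 bp with vehicle, where the groups overlapped. Peaks wider than that made up 41.4% and 21.9% of the etoposide lists, against 20.5% and 19.1% of the vehicle lists. The difference was 11.8 percentage points (exact permutation p = 0.333, two-sided) and 2.09 percentage points without etoposide replicate 1. Peaks of at least 200 bp ran the other way, at 3.65% and 2.61% with etoposide and 5.59% and 7.91% with vehicle, a difference of -3.62 percentage points. TOP2A gave a difference in peaks above the smallest width of 13.3 percentage points in number 1 and -6.56 in number 2. For peaks of at least 200 bp the TOP2A difference was -2.09 and -3.92 percentage points, the same direction as in TOP2B.

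The median number of tags per SISSRs site was lower in both etoposide libraries than in both vehicle libraries. The median was 44 and 38 tags with etoposide and 82 and 46 tags with vehicle, and vehicle replicate 2 lay close to etoposide replicate 1. The log2 difference of the medians was -0.59 (exact permutation p = 0.333, two-sided). It was -0.90 in number 1 and -0.28 in number 2, -0.69 without etoposide replicate 1 and -0.17 without vehicle replicate 1. The 90th percentile was 104 and 82 tags with etoposide and 182 and 94 with vehicle, where the groups overlapped. Log2 differences for TOP2A were -2.60 in number 1 and 0.74 in number 2.

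Medians by arm separated vehicle replicate 1 from the others, while vehicle replicate 2 overlapped both etoposide libraries. Across 41 chromosome arms, the median tag count of an arm ran from 40 to 46 and from 32 to 42 in the etoposide libraries, and from 73 to 88 and from 40 to 48 in the vehicle libraries. The arm 16p had the lowest median in etoposide replicate 2 and vehicle replicate 1, and shared the lowest median with 9p and 9q in etoposide replicate 1 and with 19p and 22q in vehicle replicate 2. The top 1% of sites held 6.17% and 4.92% of tags with etoposide and 4.80% and 4.82% with vehicle. That difference was 0.73 percentage points (exact permutation p = 0.333, two-sided), and 0.112 without etoposide replicate 1.

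**Figure D2:**
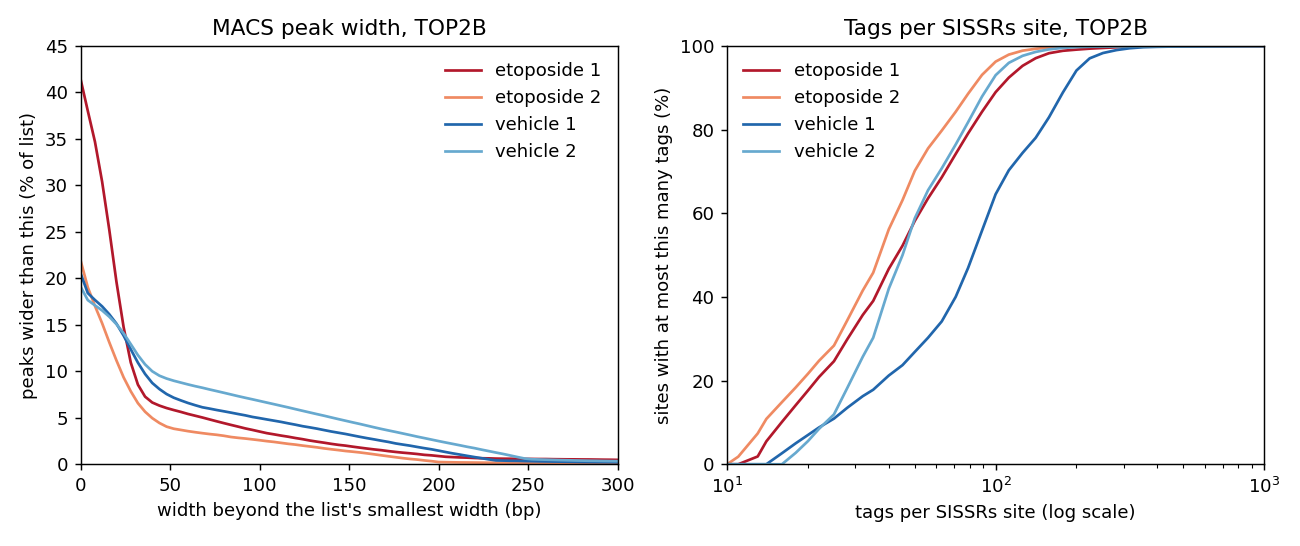
Left, share of MACS peaks whose width exceeds their list's smallest width by more than the plotted number of bp. Right, share of SISSRs sites with at most the plotted number of tags, on a log axis. Lines are the 4 TOP2B libraries. Etoposide replicate 1 starts at 41.4% on the left, and vehicle replicate 1 lies to the right of the others in tags with a median of 82.

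Peaks of at least 500 bp were few, at 270 and 45 with etoposide and 136 and 446 with vehicle. In etoposide replicate 1 nearly every such peak on chromosomes 1 to 22 and X lay within 5 Mb of the longest stretch without peaks of its chromosome, which was taken as the centromere and its neighbouring repeats. Those shares were 98.8% and 44.1% with etoposide and 41.3% and 26.9% with vehicle. Peaks of all widths there made up 7.53% and 7.99% with etoposide, and 8.50% and 7.76% with vehicle. The 1 Mb bin with most of the wide peaks was chromosome 4 from 49 to 50 Mb, which held 38 and 2 with etoposide and 5 and 4 with vehicle. Chromosome 10 from 42 to 43 Mb held 25 and 1 with etoposide and 6 and 2 with vehicle. Chromosome 8 from 86 to 87 Mb, which lies far from the centromere, held 0 and 9 with etoposide and 14 and 3 with vehicle.

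The widest MACS peak was on a contig or chromosome Y in each library. It spanned 12887 bp in etoposide replicate 1 and 1594 bp in etoposide replicate 2, against 5671 and 3942 bp with vehicle. The second widest peak of etoposide replicate 1 spanned 5932 bp on chromosome 16 (hg19 chr16:46403333-46409264). Contigs outside the assembled chromosomes held 0.454% and 0.510% of peaks with etoposide and 0.553% and 0.353% with vehicle.

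Peak density was similar in the 4 libraries at the densest and least dense arms, but not in every arm. The densest arm was 8q, at 2.45 and 2.36 times the list's mean density with etoposide and 2.33 and 2.35 times with vehicle. The least dense was Xp or Xq, at 0.504 and 0.489 times with etoposide and 0.498 and 0.506 times with vehicle. The arm 19p stood at 0.907 and 1.14 times with etoposide and 1.18 and 1.15 times with vehicle. The 95% counting interval of the ratio left out no change in 13 arms (31.7%) in number 1 and 6 (14.6%) in number 2. Across the 41 arms, limma on log2 peaks per 10000 of the list (Benjamini-Hochberg adjusted p of 0.05) called 0 arms, which is 0% of those tested. Only 2 arms had an unadjusted p under 0.05, 18p (higher) and 9p (lower). The 95% interval of every arm lay within 1.5-fold either way.

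The short arm of chromosome 18 had the highest fitted change. It held 64.4 and 55.8 peaks per 10000 with etoposide and 51.1 and 52.6 with vehicle, so both etoposide libraries lay above both vehicle libraries. The fitted log2 change was 0.21 ± 0.08 (SE, limma, adjusted p = 0.343). In limma the arm passed the threshold with SISSRs sites (0.15, adjusted p = 0.00106), without etoposide replicate 1 (0.11, adjusted p = 0.0486) and without etoposide replicate 2 (0.31, adjusted p = 2.13e-10), and over all alternatives its adjusted p ran from 2.13e-10 to 0.989. Within replicate numbers the log2 ratio was 0.33 (95% counting interval 0.15 to 0.51) in number 1 and 0.09 (-0.05 to 0.23) in number 2, and the ratios in TOP2A were 0.05 and -0.06. The short arm of chromosome 19 had the lowest fitted change, -0.19 ± 0.10 (SE, limma, adjusted p = 0.548), and -0.03 without etoposide replicate 1. It held 78.3 and 98.6 peaks per 10000 with etoposide and 102 and 99.3 with vehicle, and its log2 ratio was -0.38 in number 1 and -0.01 in number 2. The rule for named arms also gave 8p (0.09 and 0.06), 12p (0.03 and 0.12), 7p (-0.03 and -0.10) and 1q (-0.08 and -0.01).

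Arm ratios of replicate numbers 1 and 2 differed in sign in about as many arms as they matched. Ratios had the same sign in 19 of 41 arms, and their correlation across arms was -0.06 as a description over 41 arms of the same libraries. No arm lay outside its counting interval in the same direction in both numbers, and 16p lay outside in opposite directions (-0.23 in number 1 and 0.09 in number 2). The counting intervals cover counting error of the peaks only, since each ratio sets a single library against another and holds no spread between libraries. The etoposide effect on arms in TOP2B minus that in TOP2A gave 0 of 41 calls in limma (0%), with 0 arms at an unadjusted p under 0.05.

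**Figure D3:**
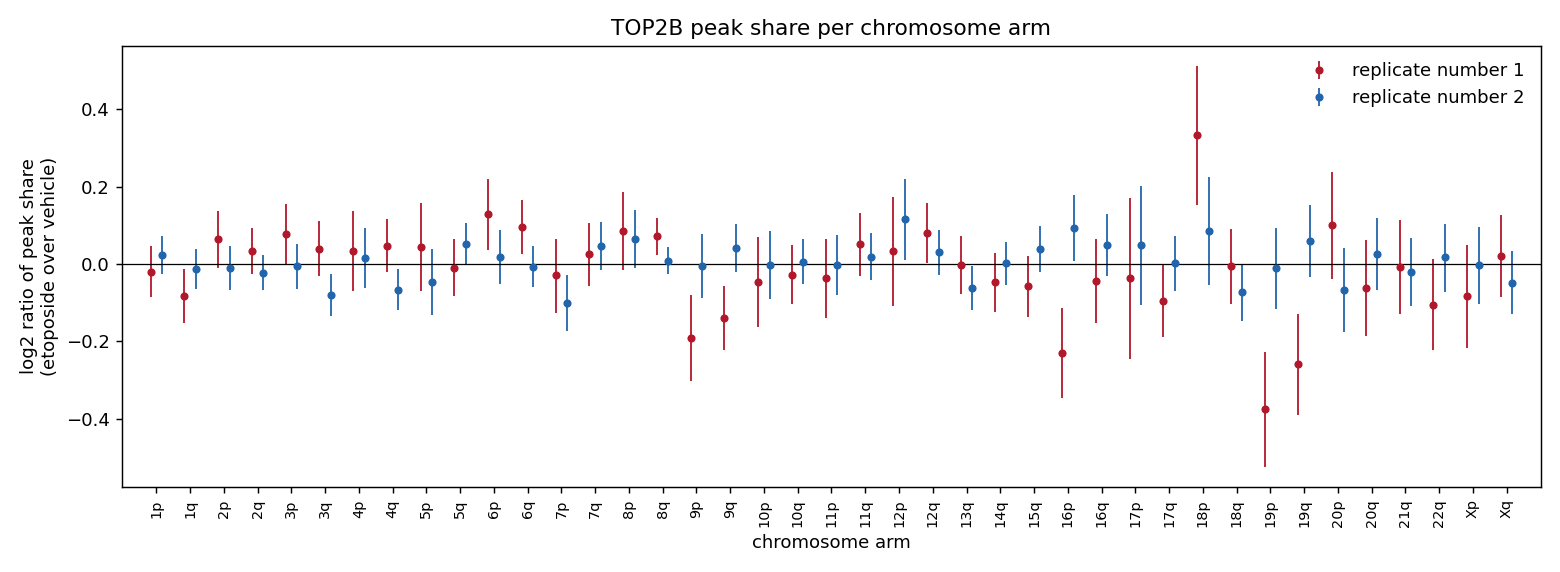
Log2 ratio of TOP2B peak share, etoposide over vehicle of the same replicate number, for 41 chromosome arms. Points are replicate numbers 1 (red) and 2 (blue), and bars are 95% exact counting intervals. Number 1 runs from -0.38 at 19p to 0.33 at 18p, and number 2 stays closer to 0.

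Bins of 5 Mb were tested in the same way. Of 597 bins, limma called 0 (0%), with 28 at an unadjusted p under 0.05 (16 higher, 12 lower). The smallest adjusted p in limma was 0.115, for the first 5 Mb of chromosome 18. That bin held 22.9 and 18.6 peaks per 10000 with etoposide and 14.6 and 16.7 with vehicle, a fitted log2 change of 0.41. Its log2 ratio was 0.65 (0.33 to 0.98) in number 1 and 0.16 (-0.09 to 0.41) in number 2. It was named after its values were seen. No bin was outside its counting interval and higher in both numbers (0%) or lower in both (0%), while 9 bins were outside in opposite directions. Among these, chromosome 9 from 45 to 50 Mb held 2.72 and 9.66 peaks per 10000 with etoposide and 14.1 and 7.02 with vehicle. Taken alone, number 1 had 68 bins outside (11.4%) and number 2 had 40 (6.70%). The interval of the fitted change lay within 1.5-fold in 563 bins. The ratios of numbers 1 and 2 correlated at -0.20 across the 597 bins, as a description over bins of the same libraries.

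The 5 Mb bin that ranked first for a higher share in both numbers was chromosome 7 from 150 to 155 Mb, with 18.6 and 19.1 peaks per 10000 under etoposide and 14.8 and 15.3 under vehicle. Its log2 ratio was 0.33 in both numbers, and in TOP2A it was 0.16 and -0.02. Neighbouring bins on chromosome 5 from 145 to 155 Mb had ratios of 0.23 and 0.23, then 0.29 and 0.37. In TOP2A they were -0.16 and -0.09, then 0.17 and 0.11, so the direction of the latter bin was not particular to TOP2B. Among lower bins, chromosome 10 from 135 to 140 Mb ranked first, with few peaks. The last peak of that chromosome in any list ended at position 135524369, so only the start of this bin held peaks. The bin held 2.15 and 1.46 per 10000 with etoposide and 3.14 and 2.61 with vehicle, with ratios of -0.55 and -0.84. Chromosome X from 70 to 75 Mb ranked next. It held 7.17 and 6.64 peaks per 10000 with etoposide and 8.72 and 9.23 with vehicle, with ratios of -0.28 and -0.48. The other bins of this ranking are not described. None of these bins was called.

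In bins of 1 Mb, limma called 0 of 2885 (0%), with 130 at an unadjusted p under 0.05. Outside the counting interval in both numbers were 5 bins that were higher with etoposide (0.173%) and 1 that was lower (0.0347%), beside 6 in opposite directions. The same count for replicate 2 over replicate 1, within each treatment, gave 1 bin higher, 1 lower and 18 opposite. With SISSRs sites, or with a 99% interval, 0 bins were higher in both numbers, so none of the 5 met the rule there.

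Of these 5 bins, 2 adjoined the longest stretch without peaks. Chromosome 10 from 42 to 43 Mb held 8.74 and 4.00 peaks per 10000 with etoposide and 3.84 and 2.44 with vehicle, with log2 ratios of 1.19 and 0.71. The same bin in TOP2A had ratios of 2.93 and 0.11. Chromosome 16 from 46 to 47 Mb held 5.59 and 4.30 with etoposide and 2.79 and 2.75 with vehicle. Its log2 ratios were 1.00 and 0.64, and in TOP2A they were 2.48 and 0.20. The other higher bins were on chromosome 12 from 9 to 10 Mb (5.30 and 5.27 with etoposide, 3.05 and 3.43 with vehicle), chromosome 14 from 30 to 31 Mb (4.01 and 4.39, against 2.27 and 2.95) and chromosome 1 from 104 to 105 Mb (4.44 and 4.69, against 2.53 and 2.99). Their TOP2A ratios were -0.10 and 0.15 on chromosome 12, 0.53 and -0.05 on chromosome 14, and 0.04 and 0.23 on chromosome 1. The lower bin was chromosome 14 from 89 to 90 Mb, with 3.01 and 2.73 with etoposide and 5.06 and 4.21 with vehicle. Its TOP2A ratios were -0.02 and 0.13.

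**Figure D4:**
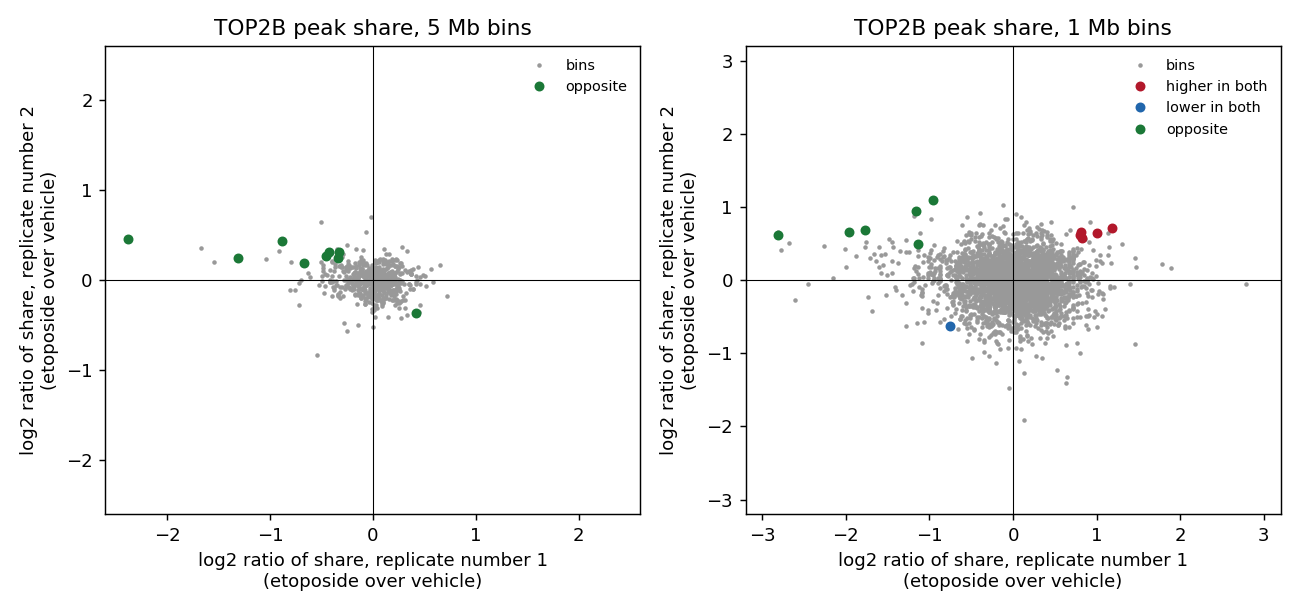
Log2 ratio of TOP2B peak share, etoposide over vehicle, in replicate number 1 (horizontal) and number 2 (vertical), for 5 Mb bins (left) and 1 Mb bins (right). Coloured points lie outside their 95% counting interval in both numbers. Of the 1 Mb bins 5 were higher, 1 was lower and 6 were opposite.

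Chromosome ends, the outer 5 Mb of each arm, held 7.28% and 7.74% of peaks with etoposide and 7.99% and 7.73% with vehicle (difference -0.35 percentage points, two-sided exact permutation p = 0.667), and the difference was -0.12 without etoposide replicate 1. The groups overlapped only between etoposide replicate 2 and vehicle replicate 2. They did not overlap in SISSRs sites, with 7.38% and 7.46% with etoposide and 7.77% and 7.67% with vehicle, nor in the outer 2 Mb, with 2.97% and 3.27% of peaks with etoposide and 3.42% and 3.30% with vehicle (two-sided exact permutation p = 0.333 for each). The lower share was not particular to TOP2B. In TOP2A the difference in numbers 1 and 2 was -0.476 and -0.236 percentage points in the outer 5 Mb. It was -1.38 and -0.212 in SISSRs sites, and -0.480 and -0.137 in the outer 2 Mb. The log2 ratio of peaks on gene-dense chromosomes (16, 17, 19, 20 and 22) over gene-poor ones (4, 5, 13, 18 and X) was -0.85 and -0.73 with etoposide and -0.71 and -0.78 with vehicle (exact permutation p = 0.667, two-sided).

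Single peaks seldom recurred. Of etoposide peaks, 1.43% in replicate 1 and 3.29% in replicate 2 overlapped a vehicle peak of the same number by at least 1 bp, which was 0.869% and 1.14% of the vehicle lists. Between replicates of a treatment, the overlap was 1.06% and 0.723% of the etoposide lists and 3.44% and 1.34% of the vehicle lists. Overlap between replicates was thus in the same range as overlap between treatments. These percentages moved with the size of the other list, so they do not rank treatment against replicate. Across numbers, 3.11% of etoposide replicate 1 peaks overlapped vehicle replicate 2, and 1.37% of etoposide replicate 2 peaks overlapped vehicle replicate 1. Peaks that overlapped the vehicle list of their number did not score above the rest. Their median scores were 84.51 against 84.51 (etoposide replicate 1) and 542.75 against 629.19 (replicate 2). For vehicle replicate 1 peaks overlapping vehicle replicate 2 they were 1179.1 against 1296.46. Merging the 4 lists gave 569168 places, of which 97.9% had a peak in only 1 list and 10 had a peak in all 4. Of these 10, 6 lay within hg19 chr6:24650945-24667129 and had a peak in all 8 libraries of the experiment. SISSRs sites gave 306 places shared by all 4 lists, and 245 of them (80.1%) lay within 5 Mb of a longest stretch without peaks. Of all SISSRs sites, 8.86% and 8.84% lay there with etoposide and 9.31% and 8.08% with vehicle. The callers differed in this, since only 1 of the 10 MACS places (10%) lay there.

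Places with the most tags differed in how they behaved. Each is given in tags per 10000 tags in the library's SISSRs sites, and all were chosen for their tag counts in these libraries, so the values are a description. The place at hg19 chr1:121482671-121485331 held 20.0 and 19.03 with etoposide and 18.7 and 18.3 with vehicle, so the groups lay close but did not overlap. Tags at that place ran the other way, with 12626 and 8902 with etoposide and 21541 and 29261 with vehicle. The place at chr8:43092771-43097751 held 20.4 and 19.8 with etoposide and 13.9 and 10.7 with vehicle, so the groups did not overlap in share. Its tags ran the other way, with 12869 and 9251 with etoposide and 16015 and 17071 with vehicle. The share is taken over a tag sum that was smaller in the etoposide lists and moves with how many sites were called. The place takes its extent from the etoposide lists, where the top site spanned 4740 and 4980 bp, while the top vehicle sites there spanned 720 and 740 bp. The authors' fold at these sites was 1.26 and 12.9 with etoposide and 1.37 and 1.08 with vehicle, against list medians of 77.2 and 140 with etoposide and 141 and 99.7 with vehicle. In TOP2A the chromosome 8 place held 79.8 and 11.6 with etoposide and 5.87 and 12.1 with vehicle.

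The place at chr2:89874711-89875331 also separated the groups in share, with 3.68 and 3.96 with etoposide and 2.27 and 1.48 with vehicle. Its tags again ran the other way, with 2323 and 1850 with etoposide and 2606 and 2354 with vehicle. In TOP2A the chromosome 2 place held 7.04 and 1.89 with etoposide and 1.94 and 1.60 with vehicle. The higher share within each number was thus not particular to TOP2B. The place at chr10:42596731-42598131 held 5.46 and 1.23 with etoposide and 6.89 and 1.32 with vehicle, so it followed the replicate number. The place at chr19:27732051-27732731 held 5.00 in etoposide replicate 1, had no listed site in etoposide replicate 2, and held 5.57 and 4.02 with vehicle. The chromosome 6 place at chr6:24651071-24651191 held 8.46 and 3.82 with etoposide and 4.69 and 2.83 with vehicle. Apart from the chromosome 6 place, each lay within 2.5 Mb of its chromosome's longest stretch without peaks.

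**Figure D5:**
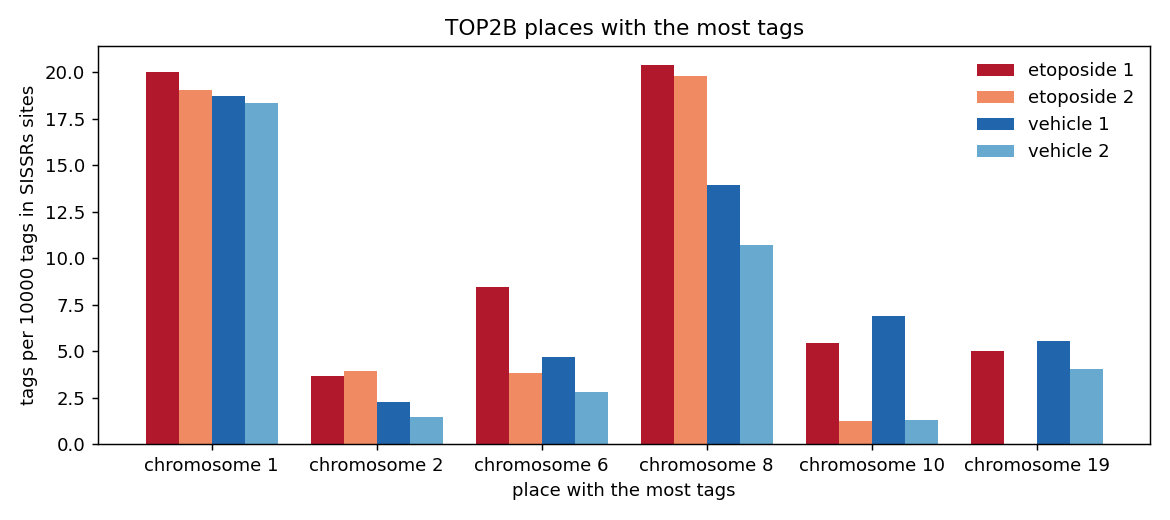
Tags per 10000 tags in SISSRs sites at 6 places with the most tags, for the 4 TOP2B libraries. Bars start at 0. The chromosome 8 place reaches 20.4 and 19.8 with etoposide against 13.9 and 10.7 with vehicle, and the chromosome 10 place is high in both libraries of number 1.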

How the data were processed

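ChIP-seq lists of 4 TOP2B libraries, and 4 TOP2A libraries for comparison, were used. Per the submitters' processing notes the build was hg19 and the tools included MACS 1.4, Bowtie2 2.2.5 and bedtools 2.26.0. No source used here gives the caller settings. The authors deposited 1 MACS list (with a score per peak) and 1 SISSRs list per library (with a tag count and a fold per site, as judged from the values, since the deposited lists have no header). Libraries were called separately. MACS starts are given counted from 1, and SISSRs coordinates as listed.

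Peaks were counted by midpoint on chromosomes 1 to 22 and X. Arms were split at the middle of the longest stretch without a peak in any of 12 MACS lists. Features with a mean of at least 50 (arms), 20 (5 Mb bins) or 5 peaks (1 Mb bins) entered limma 3.58.1 (R 4.3.3, trend and robust) on log2 peaks per 10000 with a pseudocount of 0.5 peaks, at a Benjamini-Hochberg adjusted p of 0.05. The limma step was tested on simulated data. Ratios within a replicate number have 95% exact (Clopper-Pearson) intervals. Per-library values used two-sided exact permutation tests. Other steps ran in scipy 1.17.1, pandas 2.3.3, numpy 2.4.6 and matplotlib 3.10.9 under Python 3.11.15.

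Named places were, per direction, the 3 arms and 5 bins of each size with the largest value of the smaller of both absolute log2 ratios, the 3 widest peaks and the 3 sites with most tags per list. Members, lists and tests were chosen with earlier results of these data known. No gene was assigned, because no hg19 annotation was used here.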

Additional observations from a re-analysis of the deposited data

How the results depend on the processing

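Of 115 alternative values of the main results, 100 stayed within the spread between replicates or within 1.5 times the main count, and 15 moved. Some could not move: a replicate block leaves per-library differences unchanged, and lifting the filter added no arm. The spread was also wide for peaks above the smallest width (SD of 13.8 percentage points with etoposide). There 2.09 counted as staying beside 11.8. A change of sign could count as staying too, as for the gene-dense ratio in SISSRs sites (-0.045 to 0.001). The tally is thus no measure of robustness. Leaving out each library in turn gave a difference in peaks above the smallest width of 2.09 to 21.6 percentage points, in mean width of -26.8 to -15.3 bp and in log2 tags of -1.004 to -0.17. With 1 etoposide library left in the fit, which is assumed to vary like the vehicle libraries, limma called 2 arms without etoposide replicate 1 and 9 without replicate 2, and 3 and 124 of the 1 Mb bins, so leaving out libraries gave 0 to 9 arms and 0 to 124 bins. The arm 18p was called in both of those fits. SISSRs sites gave 1 arm (18p), centring on the median feature 1 arm (8q). A width of at least 200 bp turned the wide-peak difference to -3.62 percentage points. At a MACS score of at least 100 the difference at arm ends was -0.68 percentage points and the gene-dense log2 ratio -0.13. The share of peaks in the centromere flanks differed by -0.37 percentage points (two-sided exact permutation p = 0.667), with -0.97 in number 1 and 0.23 in number 2. In TOP2A the flank difference was 0.53 and 0.46. SISSRs sites turned the TOP2B difference at the flanks to 0.16 percentage points. SISSRs sites gave 1 5 Mb bin lower in both numbers, and 0 1 Mb bins higher. A 99% interval left 0 higher and 0 lower 1 Mb bins. The causes were not tested. The replicate block called 0 arms. Deviations of same-numbered libraries correlated at -0.43 over arms, so the numbers were not taken as pairs. With crossed pairs, chosen after seeing the data, 4 arms were called. Depth is unknown, 2 libraries a group cannot pass 0.05 in an exact test, and no shift in TOP2B amount can be read from shares.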
